A study of Mus musculus with 4 samples.

Results

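The comparison described here is that of mouse bone marrow cells carrying an shRNA against lncRNA-COX2 with cells without shRNA, both after Pam3Cys4. It was defined by 2 sample titles, so it uses 2 of the 4 samples of the series, with 1 library on each side. Of 37681 gene rows in the tables, 9702 were measured in it, meaning that they reached 5 CPM (read counts scaled to a common library size) in the higher of the 2 libraries. Both libraries came from wild type C57BL/6 mice, from bone marrow cells. The medium was DMEM with serum at 10% and supernatant of L929 cells at 20%, which contains M-CSF, a growth factor for macrophages. Pam3Cys4 was given at 100 nM, and the titles give a time of 5 h. The other 2 libraries are the same cells without stimulation, and their values are printed beside the results, always in the order unstimulated, then Pam3Cys4. Where no shRNA is named, the title has the letters EV, whose meaning the labels leave unsaid, so whether those cells held a control construct is not known. The sources used here do not state the age or sex of the mice, how many animals a library stands for, or the shRNA sequence.

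Pam3Cys4 is a synthetic bacterial lipopeptide that binds the receptor pair TLR2 and TLR1. Through the adaptor MyD88 this pair turns on NF-kB and MAP kinases and with them genes for cytokines, chemokines and their inhibitors. LncRNA-COX2 is a long non-coding RNA made next to Ptgs2, the gene for the prostaglandin enzyme COX-2, and macrophages make more of it when TLRs are engaged. Type I interferon acts on a separate set of genes: its receptor activates STAT proteins, which join IRF9 and bind interferon-stimulated response elements (ISRE) in promoters. The study's design asks how gene expression after Pam3Cys4 depends on the shRNA.

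With the shRNA, Pam3Cys4-treated cells held far more RNA of the interferon-stimulated genes. Several cytokine, chemokine and protease genes were lower, while other cytokine and chemokine genes were higher. Interferon effectors were 2-fold or more higher in 32 of 34 measured cases and lower in 0, where 9.0% of all measured genes were higher and 5.58% lower. Cytokine genes, 18 of them measured, had 5 higher and 7 lower, Csf2 and Il6 among the latter. Chemokine genes, 15 of them measured, had 3 higher, Cxcl10 among them, and 5 lower. Genes of the respiratory chain (22 measured), the hnRNP proteins (16) and common reference genes (14) had 0 members past 2-fold in either direction. A gene counted as higher or lower when its ratio of scaled counts reached 2 or 0.5 and the 95% counting interval excluded 1. With 1 library a side there is no replicate, no p-value is given, and every interval covers counting error only. In bulk RNA, fewer cells of a type cannot be told apart from less RNA per cell.

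The 4 libraries held 47385277 to 65826838 gene reads over 16916 to 17267 genes. The labels call the cells bone marrow cells. Of 10 macrophage markers, 9 were measured, with Csf1r, the M-CSF receptor, at 1987 and 2078 CPM after Pam3Cys4 without and with shRNA, and Cd68 at 1308 and 2367 CPM. Of the 9, 2 were higher with shRNA (Mertk, Fcgr1) and 1 lower (Itgam). Markers of other cells were mostly absent: T and NK cell, mast cell and stroma lists had 0 measured genes, the neutrophil list 1 of 10 (Csf3r), and S100a9, Ly6g, Cd3e and Col1a2 had 0 counts in the 4 libraries. Of 11 other-cell markers that were measured, 3 were higher with shRNA (Bst2, Kdr, Ctsk) and 5 lower (Csf3r, Itgax, Ighm, Pf4, Dcstamp), and their part in the results was not tested. Summed over the list, macrophage markers stood at 5846 and 8464 CPM without shRNA and at 6532 and 8164 CPM with it. Genes of the Y chromosome differed with the shRNA in both stimulation states: Ddx3y had 3 and 4 counts without and 921 and 1116 with shRNA, Kdm5d 0 and 1 counts without and 730 and 665 with shRNA, and Uty 1 and 0 counts without and 320 and 334 with shRNA, each in the order unstimulated, Pam3Cys4. Eif2s3y was hardly read in any of the 4 libraries, with 3 and 6 counts without and 0 and 0 with shRNA, too few to give a direction. The X-linked relatives Ddx3x, Kdm5c, Kdm6a and Eif2s3x lay between 1.18-fold lower and 1.21-fold higher after Pam3Cys4. The labels do not tie libraries to animals, so a difference between animals cannot be told apart from the shRNA in any result below. How far the shRNA lowered lncRNA-COX2 itself was not analysed here.

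Of the 9702 measured genes, 873 reached 2-fold in the higher direction (9.0%), 541 in the lower (5.58%) and 1414 in one or the other (14.6%). Each list count below is to be read against these shares. At 16-fold the counts were 101 and 89, and at 64-fold they were 37 and 57, so from 64-fold on more genes were lower than higher. The median log2 ratio over all measured genes was 0.05, with quartiles of -0.27 and 0.39. The 873 higher genes took 3.57% of gene reads without shRNA and 11.96% with it, while the 541 lower genes took 6.23% and 1.89%. Calls were made at every level: 13.4% of genes with 5 to 10 CPM were higher and 10.4% lower, and of the 363 genes at 500 CPM or more 14.6% were higher and 5.79% lower. Protein-coding genes made up 837 of the higher and 510 of the lower genes, and pseudogenes 24 and 19.

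**Figure D1:**
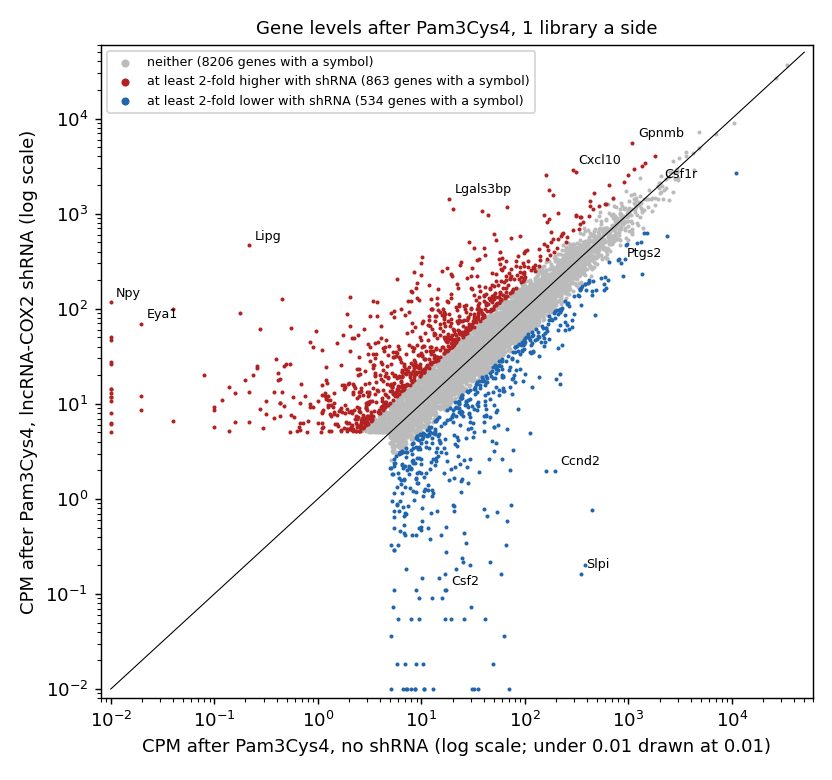
Level of each measured gene with a symbol after Pam3Cys4, in CPM on log axes, without shRNA (x) and with lncRNA-COX2 shRNA (y), 1 library on each axis. Red points are at least 2-fold higher and blue points at least 2-fold lower with shRNA, values too low for the axes are drawn at the edge, and the line marks equal levels. Npy and Lipg lie far above the line, Slpi far below it, and Csf1r on it.

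Interferon genes themselves were hardly read. Of 11 interferon ligand genes with rows in the tables, 9 had 0 counts in each of the 4 libraries, and Ifna4 had 1 count in the library with shRNA and Pam3Cys4. Ifnb1, the gene for interferon beta, had 2 and 28 counts without shRNA (unstimulated, Pam3Cys4) and 10 and 47 with it, which is 0.554 and 0.856 CPM after Pam3Cys4, a ratio of 1.54 (0.949 to 2.58). That ratio is within counting error. Ifng, the gene for interferon gamma, had 0 counts throughout.

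The receptor chains and kinases of the interferon pathway differed little, while the transcription factors that act below them were higher with shRNA. Ifnar1 and Ifnar2, the receptor for type I interferon, were at 72.1 and 89.4 CPM and at 62.0 and 71.8 CPM after Pam3Cys4 without and with shRNA, and the receptor kinases Jak1 and Tyk2 at 204 and 184 CPM and at 108 and 194 CPM. None of these 4 reached 2-fold. Stat2, which joins IRF9 in the complex that binds ISREs, stood at 17.2 and 40.2 CPM without and 140.2 and 440.3 CPM with shRNA, a ratio of 11.0 (10.5 to 11.5) after Pam3Cys4. The unstimulated library with shRNA was already above the stimulated library without it. Irf9 was 3.81-fold and Irf7, which amplifies type I interferon production, 17.3-fold higher after Pam3Cys4. Irf1 and Irf5 were 4.05-fold and 4.28-fold higher after Pam3Cys4 and did not reach 2-fold in unstimulated cells (1.93-fold and 1.14-fold). Irf3, the factor that nucleic acid sensors activate to start interferon production, was at 48.4 and 48.0 CPM. The list had 6 of 18 genes higher and 0 lower, and its median log2 ratio was 0.63, where that over all genes was 0.05.

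Most sensors of foreign nucleic acids were higher with shRNA. Ddx58, which encodes RIG-I, stood at 6.23 and 24.3 CPM without and 135 and 307 CPM with shRNA, and Ifih1, which encodes MDA5, at 4.49 and 14.6 CPM without and 52.9 and 159.7 CPM with shRNA. After Pam3Cys4 they were 12.7-fold higher (12 to 13.4) and 10.9-fold higher (10.2 to 11.8) with shRNA. Dhx58, their relative LGP2, was 15.8-fold higher, and the endosomal receptor Tlr3 21.7-fold. In unstimulated cells Tlr3 had been 8.38-fold and Dhx58 31.8-fold higher. Tlr8 was 9.12-fold, Tlr9 2.58-fold and Tlr7 2.02-fold higher. Cgas, which makes the messenger that activates STING upon DNA, reached 1.96-fold, Mavs, the adaptor of RIG-I, 1.65-fold, and Tmem173, which encodes STING, was 1.09-fold lower, none of them a call. In all, 8 of 11 sensors were higher and 0 lower, with a median of 1.65.

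Nearly all antiviral effectors were higher with shRNA. Their median log2 ratio was 3.93, and the 2 without a call were Ifi27 (38.9 and 38.1 CPM without and with shRNA) and Sp110 (47.5 and 68.5 CPM). Ddx60, a helicase that assists RIG-I, had 1 and 20 counts without and 628 and 1609 with shRNA. Its count without shRNA was near the limit of detection even after Pam3Cys4, and the ratio was 74.0 (47.8 to 122). Trim30a, whose product is known to dampen TLR signalling, stood at 0.595 and 2.06 CPM without and 51.5 and 132 CPM with shRNA, 64.0-fold higher (52.7 to 78.4) after Pam3Cys4. Rsad2, which encodes the antiviral enzyme viperin, stood at 2.32 and 38.3 CPM without and 140.5 and 1073 CPM with shRNA. The 28.0-fold difference after Pam3Cys4 (26.8 to 29.3) was smaller than the 60.5-fold one in unstimulated cells. The ubiquitin-like modifier Isg15 stood at 0.787 and 9.15 CPM without and 44.9 and 185 CPM with shRNA, and Usp18, the protease that removes it, at 3.86 and 29.1 CPM without and 113 and 502 CPM with shRNA. After Pam3Cys4 both were higher with shRNA, 20.2-fold and 17.3-fold. Ifit1, Ifit2 and Ifit3, which bind viral RNA, were 7.78-fold, 6.39-fold and 22.9-fold higher, and Mx1 and Mx2, genes of the dynamin-like GTPase family, 7.22-fold and 9.77-fold. Ifitm3, which blocks fusion in endosomes, was at 422 and 1345 CPM and 3.19-fold higher. Over the 36 genes of the list the summed level was 652 and 1194 CPM without and 4681 and 10104 CPM with shRNA.

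The oligoadenylate synthetases, which make an RNA-like second messenger upon double-stranded RNA, were higher with shRNA, and their list had 8 of 9 genes higher. Oas1g stood at 1.38 and 1.74 CPM without and 28.5 and 52.6 CPM with shRNA, and Oas3 at 17.2 and 44.1 CPM without and 686 and 962 CPM with shRNA. They were 30.2-fold and 21.8-fold higher after Pam3Cys4, and Oas1b, Oas1c and Oasl1 7.68-fold, 5.31-fold and 2.86-fold. Over the 8 interferon lists, 96 of 119 measured genes were higher.

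Guanylate-binding proteins and the immunity-related GTPases, which attack vacuoles holding pathogens, were higher in 10 of 10 cases, with a median of 3.88. Gbp2 stood at 0.403 and 8.02 CPM without and 5.33 and 122 CPM with shRNA, with the highest level in the library that had both shRNA and Pam3Cys4, and was 15.2-fold higher (13.7 to 16.8) after Pam3Cys4. Irgm1, a regulator of this family, stood at 5.87 and 19.6 CPM without and 81.0 and 222 CPM with shRNA, 11.4-fold higher (10.6 to 12.1). Of the p200 family, which holds sensors of DNA, 7 of 8 were higher, with Ifi211 12.5-fold and Ifi205 10.5-fold, and the inflammasome receptor Aim2 was the exception at 25.8 and 20.7 CPM. Schlafen and antiviral PARP genes were higher in 12 of 12 cases, from 2.23-fold for Slfn2 to 12.4-fold for Slfn5, with Parp12 and Parp14 at 12.3-fold and 10.1-fold. Members of the Gbp, Ifi200, Slfn, Oas1, Ifit3, Trim30 and H2 families have near-identical copies, and reads that aligned to several places were not counted, so their single values are uncertain. The share of reads left out as aligning to several places was 29.9% without and 27.3% with shRNA after Pam3Cys4.

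Presentation on MHC class I was higher as well. Tap1 and Tap2, the pump that brings peptides into the endoplasmic reticulum, were at 30.9 and 265 CPM and 16.8 and 88.8 CPM after Pam3Cys4 without and with shRNA. The immunoproteasome subunits Psmb8 and Psmb10 were 5.14-fold and 5.92-fold higher, the peptide editor Tapbp 4.91-fold, and the shared light chain B2m 2.34-fold. The classical heavy chains H2-K1 and H2-D1 were at 1.55-fold and 1.46-fold, under the 2-fold limit, while the non-classical H2-T22 was 7.30-fold higher. Calr and Pdia3, general chaperones of the same compartment, were 1.29-fold and 1.08-fold lower and not called. This left 13 of 17 genes higher and 0 lower, with a median of 1.71.

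**Figure D2:**
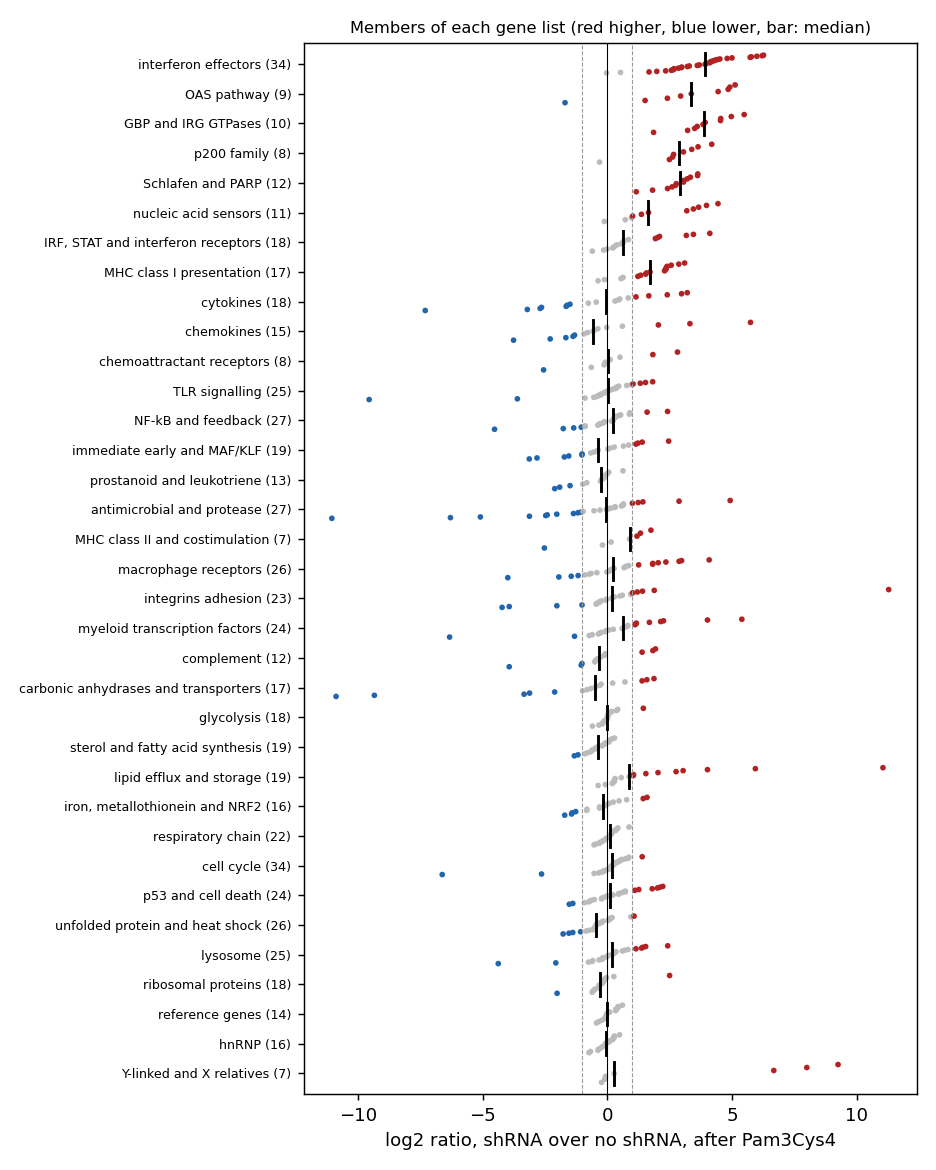
Log2 ratio of shRNA over no shRNA after Pam3Cys4 (x) for the measured members of 35 gene lists (rows, number of measured members in parentheses), 1 point a gene, red if at least 2-fold higher, blue if at least 2-fold lower, grey otherwise. Black bars are list medians and dashed lines mark 2-fold. The 8 interferon lists in the top rows lie to the right, with medians of 0.63 to 3.93, and the lists from cytokines downward spread to both sides of 0.

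Since these genes were higher together, the letters of the ISRE core, GAAA, any 2 bases and GAAA again, read on either strand (TTTC on the other strand), were looked for in RefSeq promoters of build GRCm38.p6, 250 bases before to 50 after each start. Symbols matched 7352 of 9603 measured genes with a symbol. The letters were in 3.44% of all 32851 promoters in the table, in 10.4% of the 900 promoters of genes higher with shRNA (exact 95% interval 8.52 to 12.6), in 4.67% of the 493 of lower genes (2.98 to 6.92) and in 2.51% of the promoters of genes in neither class. Among higher genes the share was 5.58% at 2- to 4-fold, 15.5% at 4- to 8-fold, 23.8% at 8- to 16-fold and 16.5% above, the last 2 over 84 and 97 promoters. By list, 7 of 8 GBP and IRG genes with a promoter held the letters, 4 of 6 OAS genes, 5 of 7 p200 genes, 12 of 27 effectors, 4 of 9 Schlafen and PARP genes, 5 of 15 MHC class I genes, 2 of 7 sensors and 3 of 17 IRF, STAT and receptor genes, against 301 of all 7352 measured genes with one. In the inflammatory lists they were in 1 of 12 cytokine genes, 1 of 10 chemokine genes, 2 of 21 TLR signalling genes, 1 of 13 immediate early genes and 0 of 23 genes of NF-kB and its feedback, but also in 5 of 17 antimicrobial and protease genes. Overlapping matches count a promoter once. The 900 promoters belong to 670 genes and the 493 to 378, and several starts of a gene can hold the same site. The intervals treat each promoter as separate, so they can be too narrow. Counted by gene, 87 of the 670 higher genes held the letters. A match is a description of the sequence and not a bound site, and genes without a match may hold other forms of the element.

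Windows of 60 bases, all upstream of the start, are shown for 8 genes of different roles, to let the shared letters be seen. They are written 5′ to 3′ along the gene, with the matching letters in capitals, and they run from a sensor partner (Ddx60 at chr8:61928027-61928086, plus strand) and effectors (Isg15 at chr4:156200850-156200909, minus; Ifit1 at chr19:34640779-34640838, plus; Oas1a at chr5:120907526-120907585, minus) to GTPases (Irgm1 at chr11:48871421-48871480, minus; Gbp2 at chr3:142620579-142620638, plus), a transcription factor (Stat2 at chr10:128270251-128270310, plus) and a chemokine (Cxcl10 at chr5:92349068-92349127, minus).
Ddx60: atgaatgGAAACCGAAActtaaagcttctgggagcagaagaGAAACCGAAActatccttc
Isg15: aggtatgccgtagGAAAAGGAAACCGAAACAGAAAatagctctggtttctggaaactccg
Ifit1: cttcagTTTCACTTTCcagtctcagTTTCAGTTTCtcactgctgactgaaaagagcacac
Oas1a: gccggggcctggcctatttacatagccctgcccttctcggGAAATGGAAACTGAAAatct
Irgm1: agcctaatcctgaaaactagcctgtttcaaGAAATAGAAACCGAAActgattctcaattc
Gbp2: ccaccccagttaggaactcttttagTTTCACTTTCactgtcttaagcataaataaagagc
Stat2: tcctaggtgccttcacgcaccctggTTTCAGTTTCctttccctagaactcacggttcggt
Cxcl10: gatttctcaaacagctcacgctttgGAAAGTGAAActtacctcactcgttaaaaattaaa
Ddx60 and Ifit1 each held 2 separate copies, and in Isg15, Oas1a and Irgm1 copies overlapped. In Oas1a the last copy ended 4 bases before the start and in Ddx60 9 bases, whereas in Cxcl10 and Stat2 it ended 203 and 212 bases before. After Pam3Cys4 these 8 genes were 7.78-fold (Ifit1) to 74.0-fold (Ddx60) higher with shRNA.

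**Figure D3:**
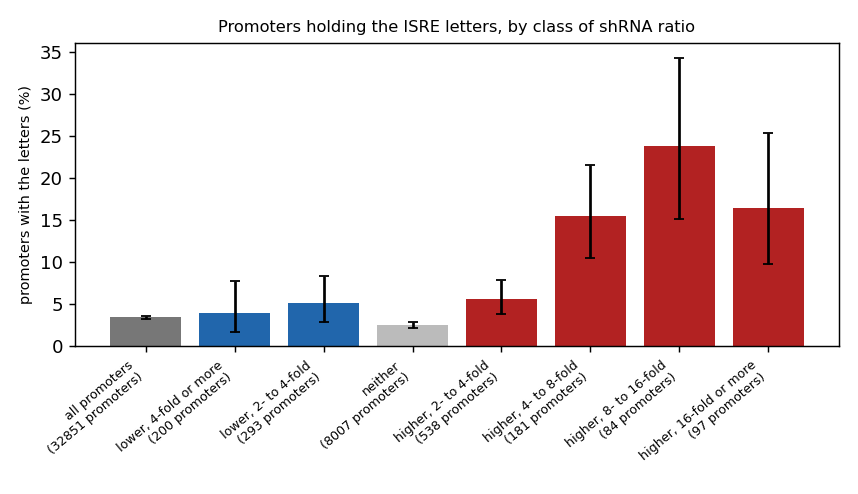
Share of promoters (y, percent) holding the ISRE letters (GAAA, any 2 bases, GAAA) on either strand, for all promoters in the RefSeq table and for classes of the shRNA ratio after Pam3Cys4 (x, number of promoters in parentheses). Error bars are exact 95% binomial intervals and cover counting only. They treat each promoter as separate, though some genes have several, so they can be too narrow. The share is 2.51% for genes in neither class and 23.8% for genes 8- to 16-fold higher.

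On the TLR2 side, the receptor pair itself was unequal. Tlr1, the partner needed for Pam3Cys4, stood at 56.0 and 67.2 CPM without and 3.60 and 5.50 CPM with shRNA, with both shRNA libraries low, and was 12.2-fold lower (10.8 to 13.8) after Pam3Cys4. Tlr2 stood at 70.1 and 197 CPM without and 80.4 and 338 CPM with shRNA, 1.71-fold higher after Pam3Cys4 and not called, and Tlr6, the alternative partner, at 4.76 and 7.88 CPM without and 5.37 and 6.49 CPM with shRNA. Cd14, which hands lipopeptides to TLR2, was at 719.8 and 712 CPM, so it did not differ beyond counting error. Myd88, the adaptor, reached 2.05-fold higher, and Cd36, a scavenger receptor that aids TLR2, 3.53-fold. Cd180 was 2.89-fold higher while Ly86, the accessory protein it needs, had 3920 and 2080 counts without and 1 and 3 with shRNA, a ratio of 753 (257 to 3656) in the lower direction. The kinases and adaptors between receptor and NF-kB, among them Irak1, Irak4, Traf6, Map3k7 and Ikbkb, lay between 1.37-fold higher and 1.07-fold lower. The list had 4 of 25 genes higher and 2 lower, where 9.0% of all measured genes were higher and 5.58% lower. Its median was 0.03, which became -0.04 with library totals alone and also lay just below 0 with factors from the 2 stimulated libraries.

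Cytokine genes were split, with Csf2, Csf3 and the interleukin-6 relatives Il6, Lif and Osm among the lower ones. Csf2, which encodes GM-CSF, had 2 and 874 counts without and 0 and 6 with shRNA, thus 17.3 and 0.109 CPM after Pam3Cys4, 158-fold lower (72.4 to 432). Only the stimulated library without shRNA was above the floor by more than a few counts. Il6 had 0 and 971 counts without and 0 and 114 with shRNA, 9.26-fold lower (7.62 to 11.3) after Pam3Cys4. Lif and Osm, relatives of Il6 that share its signalling chain, stood at 32.5 and 5.01 CPM and 60.9 and 19.4 CPM after Pam3Cys4 without and with shRNA, 6.48-fold and 3.14-fold lower. Csf3, which drives neutrophil production, was at 486 and 159 CPM and 3.06-fold lower, and Il1a was 2.83-fold lower. Hbegf, a growth factor for epithelia, was 6.23-fold lower. Il1b stood at 0.192 and 950.0 CPM without and 0.285 and 560.0 CPM with shRNA and was 1.70-fold lower after Pam3Cys4, and Tnf stood at 43.2 and 677 CPM without and 21.2 and 957 CPM with shRNA and was 1.41-fold higher, neither of them a call.

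Higher cytokine genes were of another kind. Il15, a survival factor for NK cells that interferon also controls, stood at 1.52 and 0.673 CPM without and 3.17 and 6.21 CPM with shRNA, a ratio of 9.23 (6.48 to 13.5) after Pam3Cys4. Csf1, which encodes M-CSF, stood at 2.90 and 12.5 CPM without and 44.4 and 98.6 CPM with shRNA, 7.88-fold higher (7.25 to 8.57). Il18 was 5.30-fold higher, and both subunits of interleukin-27, Il27 and Ebi3, 3.17-fold and 2.22-fold. Il10 was below 5 CPM, with 2 and 14 counts without and 7 and 60 with shRNA, and so was Il12b, with 0 and 113 counts without and 0 and 32 with shRNA. Il12b was thus read less and Il10 more with shRNA after Pam3Cys4, both from few counts. The list's median was -0.07, with 9 of its members above 0.

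Chemokine genes were split as well. Those measured that draw neutrophils were lower: Cxcl2 stood at 0.863 and 1211 CPM without and 1.64 and 487 CPM with shRNA and was 2.49-fold lower (2.45 to 2.52) after Pam3Cys4, and Cxcl3 was 3.17-fold lower. Pf4, Ccl6 and Cxcl16 were 13.6-fold, 4.90-fold and 2.60-fold lower. The 3 higher genes were Cxcl10, Ccl5 and Cx3cl1, which draw T and NK cells among others. Cxcl10 stood at 25.5 and 290.4 CPM without and 186 and 2888 CPM with shRNA, 9.95-fold higher (9.78 to 10.1). Ccl5 stood at 6.16 and 25.7 CPM without and 26.3 and 106 CPM with shRNA. Cx3cl1, a membrane-bound chemokine, stood at 0.230 and 0.831 CPM without and 5.21 and 44.6 CPM with shRNA. Cxcl9, of the same receptor group as Cxcl10, stayed below 5 CPM with 0 and 1 counts without and 5 and 58 with shRNA. The monocyte chemokines were not called, with Ccl2 at 7024 and 6902 CPM and Ccl3 at 4262 and 2860.3 CPM after Pam3Cys4. Of 15 measured chemokine genes 3 were higher and 5 lower, with a median of -0.58. Among 8 chemoattractant receptors, Ccr1 was 5.89-fold lower, and the decoy-like Ccrl2 and the C3a receptor C3ar1 7.04-fold and 3.55-fold higher.

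The NF-kB subunits and most of their inhibitors differed by less than 2-fold. Nfkb1 was 1.86-fold, Relb 1.24-fold and Rela 1.11-fold lower, while Nfkbia, the main IkB gene, was 1.18-fold and Tnfaip3, the deubiquitinase A20, 1.28-fold higher. Of 27 genes 2 were higher and 4 lower, where 9.0% of all measured genes were higher and 5.58% lower. Cish, an inhibitor of STAT5 signalling, stood at 0.595 and 60.5 CPM without and 0.360 and 2.62 CPM with shRNA, so its stimulated level was high only without shRNA, and it was 23-fold lower (19.5 to 27.4) after Pam3Cys4. The MAP kinase phosphatase Dusp1 was 3.02-fold higher and Dusp16 2.55-fold lower, and Nfkbie, which encodes IkB epsilon, 5.34-fold higher. Bcl3 and Socs1 were higher with shRNA in unstimulated cells (2.83-fold and 4.83-fold) and at 1.18-fold and 1.55-fold after Pam3Cys4.

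Immediate early genes had 4 of 19 members higher and 6 lower, with a median of -0.37 that turned to 0.02 without the filter on low levels. Egr1, a zinc finger factor made at once upon growth factor signals, stood at 19.5 and 50.3 CPM without and 4.65 and 5.74 CPM with shRNA, 8.77-fold lower (7.79 to 9.89) after Pam3Cys4. Egr2 was 7.08-fold lower and Maff, Ier3, Fosl2 and Ier2 3.30-fold, 2.92-fold, 2.03-fold and 2.02-fold. Fos stood at 15.5 and 16.6 CPM without and 34.3 and 91.4 CPM with shRNA, 5.50-fold higher (5.11 to 5.92), and Egr3 and Klf2 were 2.35-fold and 2.64-fold higher. Jun and Junb were at 269 and 170.1 CPM and 471 and 479 CPM.

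Enzymes of prostaglandin and leukotriene synthesis were lower or had no call, with 0 of 13 higher and 3 lower. Ptgs2 stood at 13.5 and 857 CPM without and 5.10 and 304 CPM with shRNA, lower with shRNA in both states, and Ptgs1, the constitutive cyclooxygenase, at 73.6 and 25 CPM without and 70.1 and 20.7 CPM with shRNA. Ptgir, the prostacyclin receptor, was 3.76-fold lower (3.63 to 3.89) and Ltc4s, which makes leukotriene C4, 4.32-fold lower (3.41 to 5.53) after Pam3Cys4. Ptges, which makes prostaglandin E2 from the COX product, was 1.98-fold lower and passed 2-fold with other scalings. The receptor Ptger4 was at 49.6 and 51.7 CPM.

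Several secreted proteases were lower, while nitric oxide synthase and its supply genes were higher. Slpi, an inhibitor of neutrophil elastase, had 2339 and 17612 counts without and 10 and 9 with shRNA, so it was high only without shRNA, 2126-fold lower (1119.9 to 4651) after Pam3Cys4. Mmp3 and Mmp13, matrix metalloproteases, were at 17.4 and 0.510 CPM and 207 and 38.9 CPM, 34.2-fold and 5.32-fold lower. Plau and its receptor Plaur were 5.55-fold and 2.57-fold lower, and Hmox1, which breaks down haem, 4.08-fold at 2383 and 584 CPM. Arg1, which consumes arginine, stood at 17.6 and 27.2 CPM without and 0.0600 and 0.346 CPM with shRNA, 78.5-fold lower (50.1 to 131). Nos2, the inducible nitric oxide synthase, stood at 0.153 and 30.2 CPM without and 0.165 and 222 CPM with shRNA, and Slc7a2, an arginine importer, at 4.01 and 10 CPM without and 70.9 and 305 CPM with shRNA. Both were higher after Pam3Cys4 with shRNA, 7.35-fold and 30.5-fold, and Slc7a2 also in unstimulated cells. Acod1, which makes itaconate, was 2.36-fold higher and Gch1, which makes the cofactor of nitric oxide synthase, 2.01-fold. The NADPH oxidase subunits Cybb, Cyba, Ncf1 and Ncf4 were between 1.06-fold and 1.56-fold higher without a call. In total 5 of 27 genes were higher and 10 lower.

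Macrophage receptor genes differed in both directions. Mrc1, the mannose receptor, stood at 89.8 and 50.5 CPM without and 5.15 and 3.17 CPM with shRNA, 15.9-fold lower (13.7 to 18.7) after Pam3Cys4. The activating receptors Trem1 and Clec5a were 3.85-fold and 2.73-fold lower. Axl and Mertk, receptors for dying cells, stood at 0.441 and 0.435 CPM without and 3.86 and 7.40 CPM with shRNA and at 4.91 and 1.09 CPM without and 38.8 and 8.02 CPM with shRNA, 17.0-fold and 7.36-fold higher. The Fc receptors parted: Fcgr1 and Fcgr4 were 4.12-fold and 7.89-fold higher, and the inhibitory Fcgr2b was 2.25-fold lower. Gpnmb, a glycoprotein of lysosome-rich macrophages, was at 1093 and 5572 CPM, 5.10-fold higher, and Siglec1 3.54-fold. Over 26 receptors 8 were higher and 4 lower, with a median of 0.23, where 9.0% of all measured genes were higher and 5.58% lower.

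Integrins and transcription factors also differed in both directions. Itgax, the CD11c gene, stood at 4.72 and 24.8 CPM without and 0.255 and 1.62 CPM with shRNA and Itgb3 at 7.56 and 5.44 CPM without and 0.705 and 0.291 CPM with shRNA, 15.3-fold and 18.7-fold lower after Pam3Cys4. Itgam, the CD11b gene, was at 969 and 479 CPM, just past the limit at 2.02-fold lower. Itgav, Itgb5 and Itga5 were 3.69-fold, 2.66-fold and 2.30-fold higher. Of 24 myeloid transcription factors 8 were higher and 2 lower, where 9.0% of all measured genes were higher and 5.58% lower. Pparg, a receptor for fatty acids typical of alveolar macrophages, stood at 0.806 and 0.435 CPM without and 25.2 and 18.3 CPM with shRNA, and Nr1h3, the sterol receptor LXR alpha, at 4.30 and 7.38 CPM without and 67.4 and 119.7 CPM with shRNA. They were 42.1-fold higher (27.7 to 67.5) and 16.2-fold higher (14.6 to 18.0) after Pam3Cys4. Mitf and Bhlhe41 were 4.41-fold and 4.77-fold higher. Cebpe, a factor of late granulocyte development, stood at 7.90 and 8.79 CPM without and 0.150 and 0.109 CPM with shRNA, 80.4-fold lower (36.7 to 220.3), and Cebpa was 2.49-fold lower. Spi1, which encodes the lineage factor PU.1, was at 718 and 1199 CPM and Irf8 at 429.6 and 283 CPM, neither of them called. In the complement list C3 and C1ra were 2.63-fold and 3.82-fold higher and C1qa 2.07-fold lower.

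For antigen presentation to CD4 T cells, few genes passed 5 CPM. Cd74, the invariant chain, stood at 587 and 1347 CPM without and 136 and 234 CPM with shRNA, 5.75-fold lower (5.65 to 5.86) after Pam3Cys4. Cd274, which encodes PD-L1, and Cd83 were 2.51-fold and 2.28-fold higher, and Cd86 was at 26.7 and 23.4 CPM without a call. The class II chains H2-Aa and H2-Eb1 had at most 30 and 17 counts in any library, and H2-Ab1 had 102 and 235 counts after Pam3Cys4 without and with shRNA.

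Genes of lipid uptake, transport and storage were often higher, while 17 of 19 genes of sterol and fatty acid synthesis had no call. Lipg, endothelial lipase, had 3 and 11 counts without and 4313 and 25532 with shRNA, 2136-fold higher (1194 to 4279.5) after Pam3Cys4. Ch25h, which makes the oxysterol 25-hydroxycholesterol and answers to interferon, had 0 and 11 counts without and 20 and 734 with shRNA, 61.4-fold higher (34.1 to 124). Fabp4 and Fabp5, fatty acid carriers, were 6.77-fold and 4.09-fold higher, Apoc2 8.23-fold, and Plin2, which coats lipid droplets, 2.06-fold. Abca1 and Abcg1, the cholesterol pumps that LXR controls, reached 1.21-fold and 1.83-fold and were not called. That list had 9 of 19 genes higher and 0 lower, with a median of 0.87. In the synthesis list 0 of 19 were higher and 2 lower, where 9.0% of all measured genes were higher and 5.58% lower. Scd2, a desaturase of fatty acids, was 2.26-fold lower, and the list median was -0.39. Insig1, a sensor that restrains synthesis, was 1.86-fold lower without a call.

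Acid and metal handling held some of the lowest ratios. Car2, a carbonic anhydrase that supplies protons for acid secretion, had 17349 and 19146 counts without and 8 and 11 with shRNA, 1891-fold lower (1057 to 3789) after Pam3Cys4. Car12, its membrane-bound relative, had 2667 and 1799 counts without and 2 and 0 with shRNA. After Pam3Cys4 Car12 was 652-fold lower when the 0 is set to 3 counts, with an interval from 529 up. Car13 was 1.63-fold higher at 36.8 and 60.1 CPM and not called, so the family was split. Slc40a1, the iron exporter ferroportin, was 10.1-fold lower and Slc39a14, a zinc and iron importer, 4.33-fold. The metallothioneins Mt1 and Mt2 were 2.41-fold and 3.27-fold lower and Gclm, of glutathione synthesis, 2.70-fold. Gstm1 and Keap1 of the same list were 3.02-fold and 2.71-fold higher. The list of iron, metallothionein and NRF2 genes had 2 of 16 higher and 4 lower. That of carbonic anhydrases and transporters had 3 of 17 higher and 5 lower. Over all measured genes 9.0% were higher and 5.58% lower. The ferritin chains Fth1 and Ftl1 were within 1.18-fold.

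Genes of energy metabolism had few calls. In glycolysis 1 of 18 genes was higher, Pfkfb3, which makes an activator of phosphofructokinase, at 2.72-fold, and 0 were lower. In the respiratory chain 0 of 22 were called. Over all measured genes 9.0% were higher and 5.58% lower, so the glycolysis count was near the share over all genes. The medians were 0.00 and 0.09, and that of glycolysis was -0.07 to -0.02 with the other 3 scalings.

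Cell cycle genes had 1 of 34 members higher and 2 lower, where 9.0% of all measured genes were higher and 5.58% lower. Ccnd2, cyclin D2, stood at 312 and 196 CPM without and 2.30 and 1.99 CPM with shRNA, 98.6-fold lower (81.7 to 120.3), while Ccnd1 was 1.22-fold and Ccnd3 1.76-fold higher, without a call. Cdkn2b, the inhibitor p15, was 6.23-fold lower, and Ccna2, cyclin A2, 2.64-fold higher. The other 31 had no call, and Mki67 was at 92.8 and 152 CPM. Of the stress and cell death genes, 6 of 24 were higher and 2 lower, against the same 9.0% and 5.58%, with a median of 0.12. Casp1 and Casp4, caspases of inflammasomes, were 4.68-fold and 3.48-fold, Gsdmd, whose product forms the pore, 2.40-fold, and Mlkl, of necroptosis, 4.04-fold higher. Bcl2 was 2.61-fold lower. Genes of the unfolded protein response and heat shock had a median of -0.45, with 4 of 26 lower (Herpud1 3.42-fold, Trib3 2.91-fold, Chac1 2.61-fold, Sdf2l1 2.10-fold) and Hspa1a 2.10-fold higher. Of the lysosomal genes Ctsk was 5.36-fold, Npc2 2.69-fold and Psap 2.59-fold higher, and Ctsh 20.8-fold lower. The hnRNP genes, which encode RNA-binding proteins, lay between 1.67-fold lower (Hnrnpa0) and 1.41-fold higher (Hnrnpd). Actb was at 26878 and 26522 CPM and Polr2a at 327 and 440.3 CPM.

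Some genes were read almost only on one side of the comparison. With at most 3 counts in the other library, 20 genes were measured with shRNA alone and 29 without shRNA alone. Of the 20, 19 also had at most 3 counts in the unstimulated library without shRNA, and of the 29, 16 had at most 3 counts in the unstimulated library with shRNA. Npy, a neuropeptide gene, had 0 and 0 counts without and 4954 and 6415 with shRNA. After Pam3Cys4 Npy was 1968-fold higher when the 0 is set to 3 counts, with an interval from 1599.9 up. Nedd4, a ubiquitin ligase gene, had 0 and 0 counts without and 3640 and 2756 with shRNA. In the same way it was 845-fold higher, with an interval from 687 up. Eya1, a transcriptional cofactor of organ development, had 0 and 1 counts without and 8317 and 3812 with shRNA, a ratio of 3508 (629 to 138599). These 3 were high in both shRNA libraries and at 0 or 1 counts in both others. Tspan7, a tetraspanin gene, had 2 counts without and 5436 with shRNA after Pam3Cys4. The caveolin gene Cav1 and the growth factor receptor gene Fgfr1 had 0 counts without shRNA and 588 and 348 with it.

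On the other side, Nid2, a basement membrane protein, had 5606 and 3578 counts without and 9 and 0 with shRNA. After Pam3Cys4 Nid2 was 1296-fold lower with the 0 set to 3 counts, and its interval began at 1053. Spry4, an inhibitor of receptor tyrosine kinase signalling, had 1003 and 1640 counts without and 8 and 0 with shRNA. Spry4 was 594-fold lower in the same way, and its interval began at 482.5. Cers4, a ceramide synthase, had 1342 and 2510 counts without and 1 and 1 with shRNA, and Map1b, a microtubule protein, 1044 and 3181 counts without and 6 and 2 with shRNA. For these 4 genes both libraries without shRNA were high and both with shRNA low. Hs3st3b1 and Hs3st3a1, which modify heparan sulfate, had 1511 and 294 counts without and 4 and 1 with shRNA after Pam3Cys4. Cd38, which consumes NAD, had 443 and 0. Hectd2os, an antisense transcript, had 531 and 0, but the strand setting of the counting is not given in the sources used here, so its reads cannot be told apart from those of its partner gene.

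**Figure D4:**
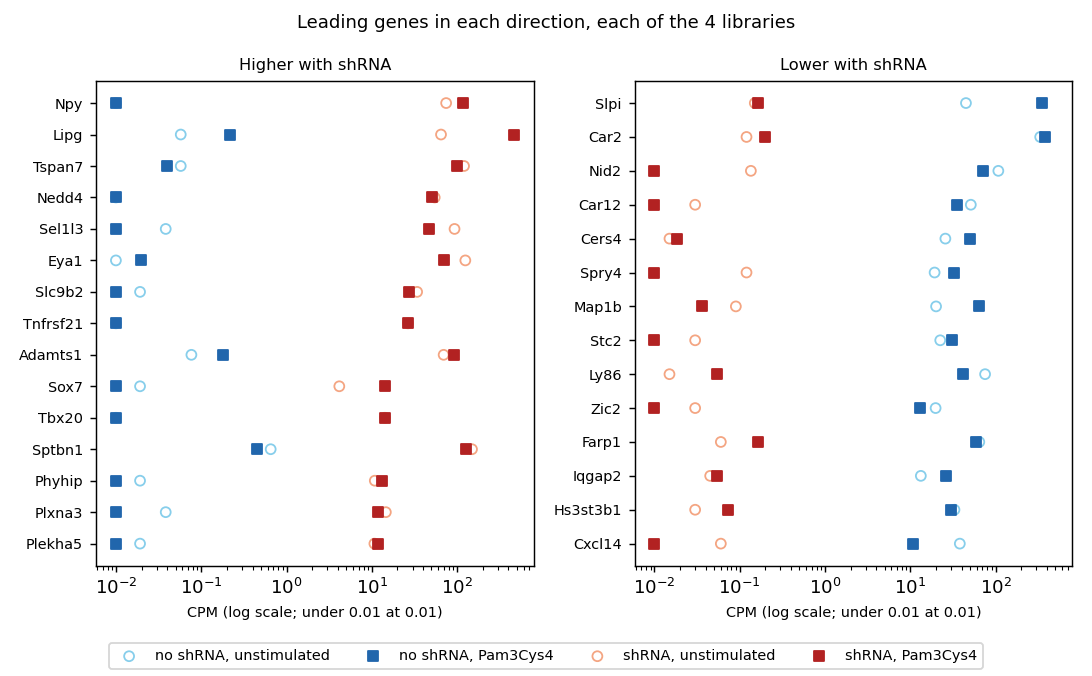
Levels in CPM (x, log scale) of the 15 higher genes and 14 of the 15 lower genes whose interval lies farthest from 1 after Pam3Cys4 (rows), in each of the 4 libraries. Circles are unstimulated and squares Pam3Cys4-treated, blue without and red with shRNA, and values too low for the axis are drawn at its edge. In each gene both red points lie to one side of both blue points, and Slpi also differs between its blue points, with 2339 and 17612 counts.

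The same shRNA comparison can be made in unstimulated cells, with no library in common. Of the 9651 genes measured there, 7.0% reached 2-fold in the higher and 4.82% in the lower direction. Of the 873 genes higher after Pam3Cys4, 781 were measured in unstimulated cells and 520 of these (66.6%) were higher there as well, which is 83.2% of the 625 genes higher in unstimulated cells and measured here. Of the 541 lower genes, 465 were measured and 307 (66.0%) were lower, or 78.3% of 392. Opposite calls were made for 4 genes. For each gene the 2 shRNA ratios were then divided by each other, provided that all 4 libraries had 10 or more counts. This ratio of ratios was called larger in 1.94% of 9857 genes, meaning that it was 2 or more in favour of Pam3Cys4 with an interval above 1, and smaller in 1.64%. Among the higher genes it was larger in 108 of 817 and smaller in 35, and among the lower genes further from 1 in 72 of 475 and nearer in 14. Being called after Pam3Cys4 favours genes whose ratio is farther from 1 there, so these 2 splits are descriptions.

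Several genes with low levels before Pam3Cys4 were lower with shRNA after it. Csf2, Il6 and Mmp3 had at most 2 counts in each unstimulated library, so no ratio can be given there. Cish (0.595 and 0.360 CPM without and with shRNA unstimulated), Lif (0.365 and 0.270 CPM), Osm (3.17 and 3.89 CPM) and Trem1 (2.99 and 2.31 CPM) had no call in unstimulated cells and were lower after Pam3Cys4, and their shRNA ratio was 14.0-fold, 4.80-fold, 3.86-fold and 2.98-fold smaller there than before it. For interferon effectors the ratio was larger after Pam3Cys4 in 4 of 30 genes and smaller in 7, with medians of 3.91 unstimulated and 3.93 after Pam3Cys4, on the log2 scale. The 7 were Ifit1, Ifit3, Isg15, Rsad2, Cmpk2, Rtp4 and Xaf1, with Isg15 at 20.2-fold against 57.0-fold, and the 4 were Samhd1, Ube2l6, Herc6 and Sp110. MHC class I genes had a larger ratio after Pam3Cys4 in 4 of 17 genes and a smaller one in 0, with H2-T22 at 7.30-fold against 2.64-fold. Each of these differences rests on 4 single libraries.

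**Figure D5:**
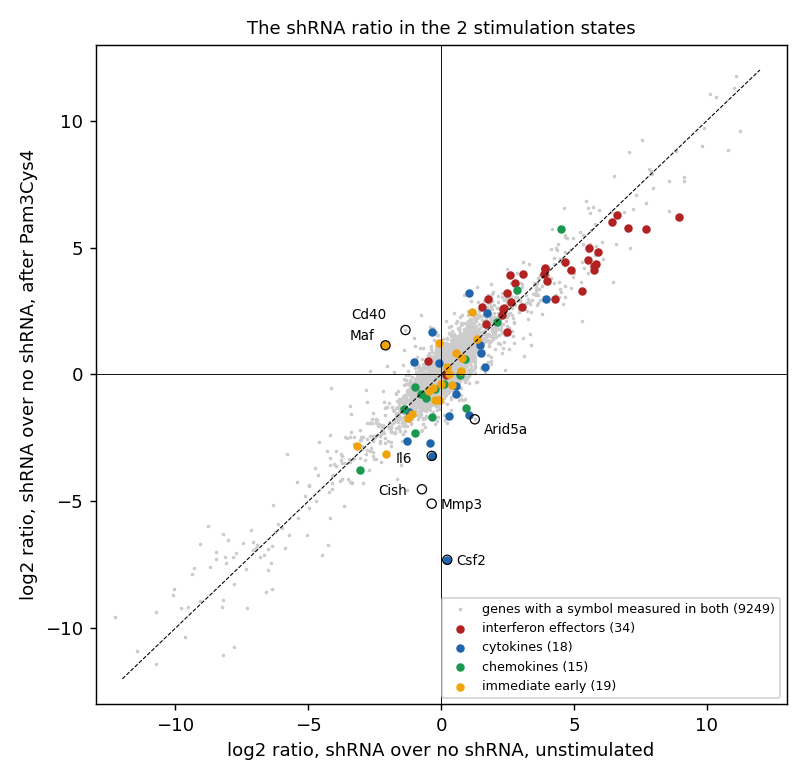
Log2 ratio of shRNA over no shRNA in unstimulated cells (x) and after Pam3Cys4 (y), 1 point a gene with a symbol measured in both, with 4 gene lists in colour (measured members in parentheses, including some below 5 CPM in unstimulated cells), equal ratios on the dashed line and 7 genes named. Interferon effectors lie at the upper right in both states, while Csf2, Mmp3 and Il6 lie below 0 on the y axis, with x positions set by the floor of 3 counts for a 0 or by single counts.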

How the data were processed

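RNA of mouse bone marrow cells was sequenced in 4 libraries as 50 bp reads, per the labels. The deposited values are whole-number read counts per Ensembl gene. The submitters' processing notes name CASAVA 1.8, TopHat, HTSeq and the build NCBIM37, while other versions, strand setting and annotation release were not given in the sources used here. Left out were 5 summary rows that name no gene, 32.5% to 34.4% of each total, mostly reads aligned to several places.

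From the 37681 gene rows, CPM were computed with TMM factors over the 4 libraries (edgeR 4.0.16, R 4.3.3). Ratios had exact conditional binomial 95% intervals (Python 3.11.15, scipy 1.17.1), checked on simulated data, and a 0 was set to 3 counts. Genes with 5 CPM in the higher library were used, and a call needed 2-fold and an interval without 1. Scaling by totals or by DESeq2 1.42.0 size factors, other filters, a 99% interval and another floor were alternatives.

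Symbols came from GENCODE vM21, used for names and biotypes of 32642 genes. Of 801 genes in 45 lists 794 were matched. Named were the 15 genes a direction whose interval bound lay farthest from 1 and up to 4 genes a list by size of ratio, lists of 12 or fewer in whole, and others chosen after their values were seen. Some items are not reported here. The members and lists were chosen with earlier results of these data known. With 1 library a group, intervals measure counting error only.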

Additional observations from a re-analysis of the deposited data

Results flagged for a closer look

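In 4 genes the shRNA comparison went in opposite directions in unstimulated and Pam3Cys4-treated cells, with a difference of 2-fold or more each way. The log2 differences between the states are given with 95% counting intervals, which exclude 0 in all 4, but the difference was not tested over replicates, since each state has 1 library a side.

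Arid5a, which encodes a protein that stabilises Il6 mRNA, stood at 2.19 and 25.1 CPM without shRNA (unstimulated, Pam3Cys4) and at 5.27 and 7.38 CPM with it. Its log2 ratio of shRNA over no shRNA was 1.27 in unstimulated cells and -1.77 after Pam3Cys4, a difference of -3.04 (-3.38 to -2.69), and the stimulated library without shRNA had the highest level.

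The other 3 genes went from lower to higher. Cd40, a co-stimulatory receptor, had 579 and 3560 counts without shRNA and 292 and 13012 with it, log2 ratios of -1.34 and 1.75, a difference of 3.09 (2.88 to 3.30). Maf, a transcription factor of macrophages, had 5681 and 2186 counts without and 1701 and 5259 with shRNA, log2 ratios of -2.09 and 1.15 and a difference of 3.24 (3.13 to 3.35), so its count was lower after Pam3Cys4 without shRNA and higher with it. Saa3, an acute phase protein, had 507 and 11712 counts without and 323 and 34232 with shRNA, log2 ratios of -1.0 and 1.43, the first of them at the 2-fold limit itself, and a difference of 2.43 (2.23 to 2.64).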

How the results depend on the processing

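The counts of genes depended on the filter on low levels. Without it 1610 genes passed 2-fold in the higher direction after Pam3Cys4 and 1449 in the lower, and with 20 CPM in place of 5 CPM the counts were 571 and 325. Among all calls, 61.7% were in the higher direction, against 52.6% without a filter and 56.1% with library totals in place of TMM factors, which gave 772 higher and 605 lower genes. Another scaling moved the median log2 ratio of all genes by at most -0.07.

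The share of gene reads taken by the higher genes in the library with shRNA, 11.96%, was 11.1% with library totals, 11.7% with DESeq2 size factors, 11.6% with factors from the 2 stimulated libraries, 12.1% without a filter and 11.7% at 20 CPM. The share of higher genes' promoters with the ISRE letters, 10.4%, was 8.32% without a filter, 12.2% at 20 CPM and 5.22% when the base C had to follow the letters, which held for 0.819% of all promoters.

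Of 171 named genes, 169 to 171 kept their direction and their call under each of the 3 other scalings and a floor of 1 count. The exceptions were Ptges, with every scaling, and Ocstamp, with library totals, which passed 2-fold. Many of the named genes were picked for large ratios, which small shifts of scale cannot undo. The agreement therefore follows largely from that choice and says little about genes near 2-fold. List medians changed sign for chemoattractant receptors and glycolysis with each other scaling, for TLR signalling with 2 of them and for macrophage markers with library totals. Without a filter they changed sign for immediate early, antimicrobial, integrin, myeloid factor, chemoattractant receptor and sex-linked genes, and at 20 CPM for antimicrobial, reference, sex-linked and osteoclast genes.

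No paired analysis was possible because each group has 1 library, and for the same reason no library was left out. Depth limits genes with few counts: 1 read was 0.0198 CPM without and 0.0182 CPM with shRNA after Pam3Cys4. What the ratios would be in other cultures or animals is not known from 1 library a side.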

Other observations

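Genes of the osteoclast list were read in these cells and parted with the shRNA. Dcstamp, which is needed for the fusion of osteoclasts and giant cells, had 823 and 1054 counts without and 30 and 41 with shRNA (unstimulated, then Pam3Cys4) and was 27.9-fold lower (20.4 to 39.2) after Pam3Cys4. Ocstamp, which acts beside it, had 480 and 478 counts without and 348 and 269 with shRNA, 1.93-fold lower and under the 2-fold limit. Ctsk, the collagen-degrading cathepsin K, had 530 and 619 counts without and 4124 and 3605 with shRNA, 5.36-fold higher (4.92 to 5.85), while Mmp9 was 1.48-fold higher without a call. Among markers of other cells, Ighm, the IgM heavy chain, had 12809 and 4527 counts without and 2709 and 1289 with shRNA, and Kdr, a VEGF receptor, 196 and 191 counts without and 600 and 745 with shRNA. Both libraries with shRNA were low for Dcstamp and Ighm and high for Ctsk and Kdr, whatever the stimulation.

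Some other genes with extreme ratios encode developmental regulators. Sox7, a transcription factor of vessels and endoderm, had 1 and 0 counts without and 277 and 784 with shRNA, and Tbx20, a T-box factor of the heart, 0 and 0 counts without and 950 and 777 with shRNA. Zic2, a zinc finger factor of the brain, had 1031 and 651 counts without and 2 and 0 with shRNA, so it was read without shRNA and nearly absent with it. Cxcl14, a chemokine gene outside the list above, had 1982 and 541 counts without and 4 and 0 with shRNA, and Bambi, a decoy receptor for TGF-beta family ligands, 1409 and 523 counts without and 6 and 1 with shRNA. The ribosomal protein genes Rpl3 and Rps6 went in opposite directions, 4.05-fold lower and 5.65-fold higher after Pam3Cys4, and both have near-identical pseudogenes to which reads can also align. Of the 18 measured genes of the ribosomal list, 16 had no call, and the list median was -0.28.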
